A study of Mus musculus with 48 samples.

Results

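Acetylcholine reaches hippocampal neurons through muscarinic receptors, which couple to G proteins, and nicotinic receptors, which are ion channels built of 5 subunits. The genes described here are a fixed list of 9: the muscarinic receptor genes Chrm1, Chrm2, Chrm3 and Chrm4, and the nicotinic subunit genes Chrna2, Chrna4, Chrna5, Chrna7 and Chrnb2. They are 9 of the 37620 genes in the count table, which holds 21 acetylcholine receptor subunit genes in all, and they were listed by name, with earlier results of these data known. Each was followed across 16 neuron populations of the mouse hippocampus, each with 3 libraries.

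Of the 16 populations, 10 were CA1 pyramidal neurons. These were taken by position along the long axis (dorsal, intermediate or ventral), along the transverse axis (proximal or distal), by depth in the cell layer (superficial or deep), or by the target of their axons, as dorsal cells projecting to the postsubiculum and ventral cells projecting to the amygdala or to the nucleus accumbens. The other 6 were dorsal and ventral CA3 pyramidal neurons, granule cells from the dorsal and the ventral dentate gyrus (DG), and parvalbumin (PV) and somatostatin (SST) interneurons. All were fluorescent neurons picked by hand after microdissection, and every library was amplified after the addition of ERCC spike-in RNA. Strain, age, genotype and the transgene or tracer that labelled each population were not given in the sources used here, so nothing can be said of which cells a driver line included. The series calls the 3 libraries of a population biological replicates, and the p-values below measure the spread between these libraries.

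Muscarinic M1 and M3 receptors, the products of Chrm1 and Chrm3, act through the G protein Gq and phospholipase C, and are known for closing the potassium channels of the M current in pyramidal neurons. M2 and M4, the products of Chrm2 and Chrm4, act through Gi and Go, lower cyclic AMP, open inwardly rectifying potassium channels and restrain transmitter release. Among nicotinic subunits, alpha4 and beta2 assemble into the common high-affinity receptor of the brain, alpha5 joins such receptors as an accessory subunit, alpha7 forms receptors of its own kind with high calcium permeability, and alpha2 is known in the hippocampus from interneurons of the stratum oriens.

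Libraries held 5.12 to 31.98 M reads in genes (median 19.3 M). Markers of the labelled identities were compared between populations. Prox1 stood at 1062 CPM or more in every granule cell library and Sst at 3652 CPM or more in the SST libraries. Pvalb stood at 316 CPM or more in the PV libraries, which also held 249 to 952 CPM of Sst. The 4 granule cell markers summed to 1418 to 1968 CPM in DG libraries, with Calb2 at 0 in dorsal DG. In ventral CA3 they summed to 79.5 to 325 CPM. The 4 CA1 markers summed to 488 to 2290 CPM in CA1 libraries and to 11.0 to 159 CPM in the others. The 4 CA3 markers summed to 929 to 1047 CPM in dorsal CA3 and 385 to 594 CPM in ventral CA3, where 1 of them, Iyd, stood at 0.464 to 0.601 CPM. CPM, the counts-per-million scale, relates the reads of a gene to all gene reads of its library, after scaling between libraries. Summed over 6 GABAergic genes, deep CA1 libraries stood at 157 to 734 CPM against 14.9 to 146 CPM in superficial and 0.0399 to 1.49 CPM in dorsal CA1 libraries. In SST libraries 5 of 5 microglial genes were detected, with a sum of 19.4 to 52.9 CPM. In bulk libraries, fewer cells of a type and less RNA per cell cannot be told apart. Chat, which makes acetylcholine, had no read in any of the 48 libraries.

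All 9 genes differed somewhere among the 16 populations by edgeR's quasi-likelihood F test, with adjusted p-values from 6.84e-20 for Chrm1 to 0.0183 for Chrm4. Adjustment was by Benjamini and Hochberg over all genes tested, and a gene is called different below at an adjusted p under 0.05. This count of 9 of 9 stands against 65.3% of the 17918 genes tested that were called in the same test, so differing somewhere was common in these data, and since the list was not blind to the levels, nothing is read from the count. The genes differed greatly in how their levels were spread. Chrm1 and Chrnb2 were read in all 48 libraries, at 14.2 to 445 CPM and 12.6 to 90.1 CPM. Chrm2 had reads in only 23 libraries and Chrna2 in 41.

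**Figure D1:**
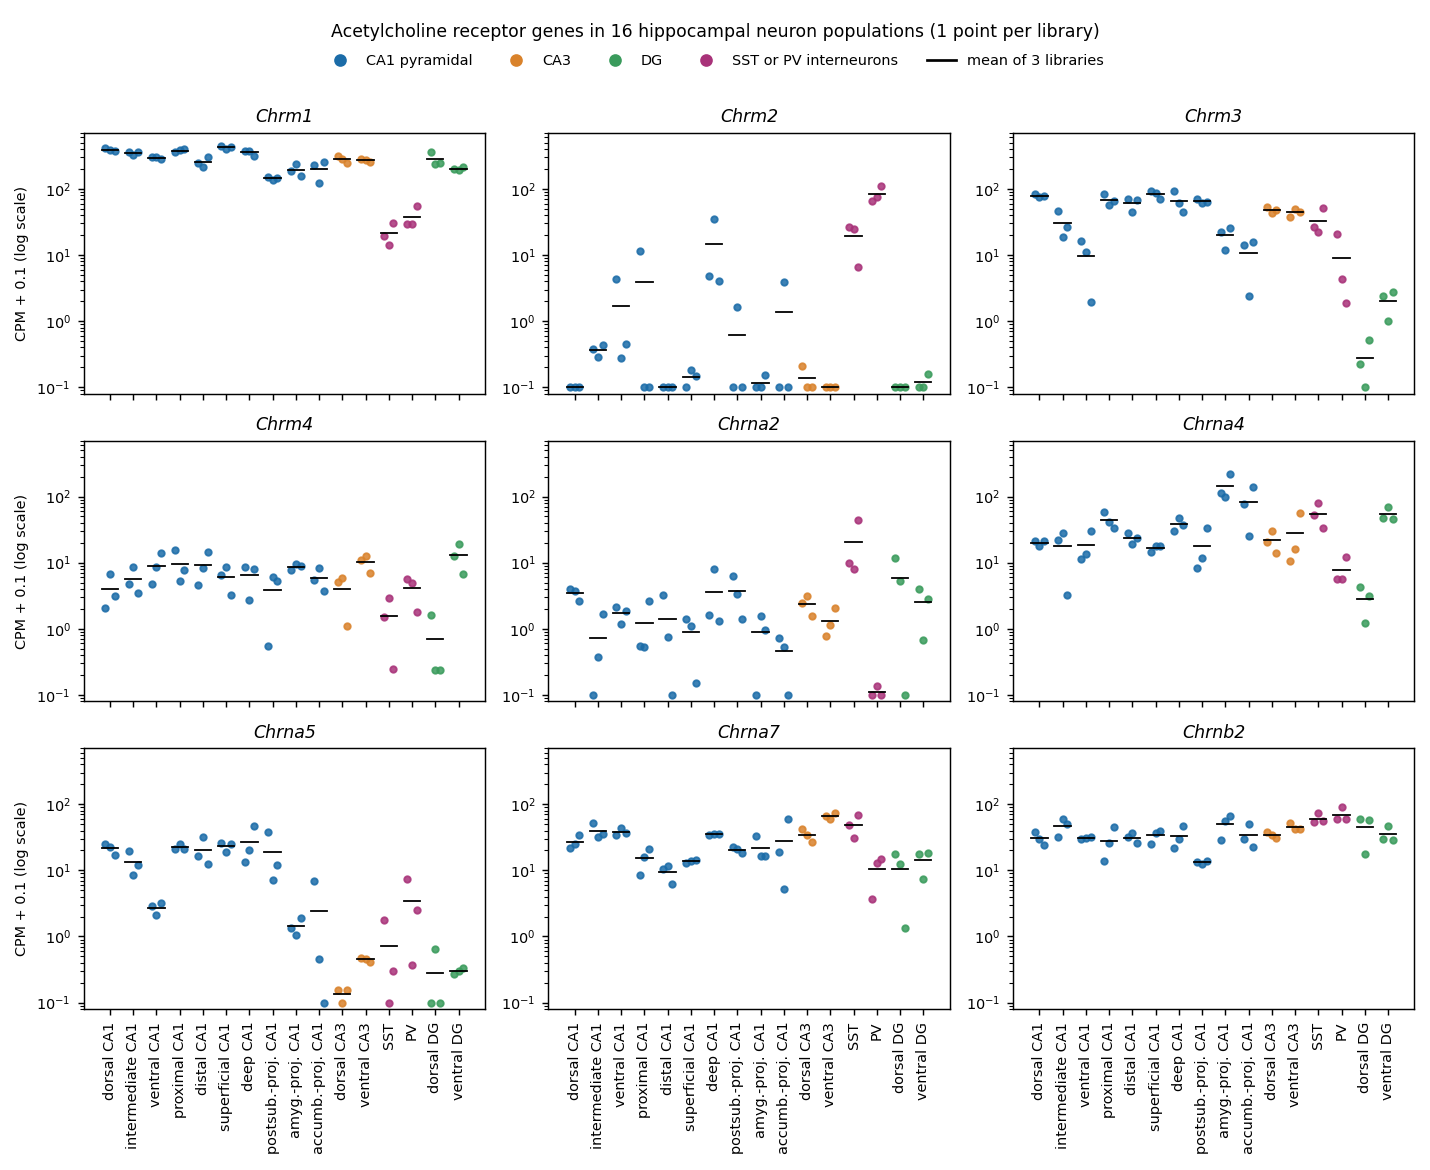
Level of each of the 9 receptor genes (CPM + 0.1, log axis) in the 16 populations; each point is 1 library, the black line is the mean of 3, and colours mark the hippocampal region. Chrm1 is lowest in PV and SST interneurons, Chrm2 is highest in PV interneurons, and Chrna5 is at 0.552 CPM or below in all CA3 and DG libraries.

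Levels of different genes can be compared only per transcript length, for which the deposited FPKM values, which are scaled for transcript length and depth, served. In dorsal CA1, Chrm1 averaged 97.1 FPKM and Chrm3 41.8 FPKM, whereas Chrm4 averaged 1.72 FPKM and Chrm2 was listed at 0. The nicotinic subunits were lower there, with Chrna7 at 14.9, Chrna5 at 10.4, Chrnb2 at 6.04, Chrna4 at 4.84 and Chrna2 at 1.01 FPKM. PV interneurons had another order of means, led by Chrm2 at 19.1 and Chrnb2 at 14.5 FPKM, ahead of Chrm1 at 8.46 FPKM. Single libraries varied, as Chrnb2 (18.73 FPKM) was above Chrm2 (17.95 FPKM) in PV replicate 2. In PV replicate 3, Chrm1 (12.67 FPKM) was just above Chrnb2 (12.46 FPKM). In SST interneurons, Chrna7 averaged 28.3, Chrna4 20.1 and Chrm3, the highest of the muscarinic genes there, 18.4 FPKM. Chrna7 was above Chrm3 in each SST library. Chrna4 (14.13, 19.3 and 26.72 FPKM) and Chrm3 (14.44, 12.33 and 28.49 FPKM) overlapped, Chrm3 being the higher in replicates 1 and 3.

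As a share of the summed FPKM of the muscarinic genes Chrm1 to Chrm5, Chrm1 made up 99.6% ± 0.2 (SD, n = 3) in dorsal DG, 67.2% ± 2.3 in dorsal CA1, 40.8% ± 1.4 in postsubiculum-projecting cells, where Chrm3 held more (45.05% ± 3.03), and 17.2% ± 4.8 in SST interneurons. Chrm2 held 55.5% ± 11.4 of the muscarinic sum in PV interneurons, and Chrm3 61.9% in SST interneurons. Chrm5, a further Gq-coupled receptor gene outside the list of 9, held 21.7% ± 5.9 in amygdala-projecting and 14.7% ± 6.0 in accumbens-projecting cells. Among neuronal nicotinic genes, Chrna4 made up a mean of 69.1% of the summed FPKM in amygdala-projecting cells, Chrna7 68.8% in ventral CA3, and Chrnb2 57.9% in dorsal DG and 45.7% in PV interneurons. The dorsal DG libraries disagreed, with Chrnb2 at 13.34, 4.019 and 12.78 FPKM and Chrna7 at 10.65, 4.753 and 0.7961 FPKM. Chrna7 was thus above Chrnb2 in dorsal DG replicate 2. The muscarinic sum itself was 144 ± 11.6 FPKM in dorsal CA1 and 28.8 ± 7.35 FPKM in SST interneurons (SD, n = 3), while the nicotinic sum was 37.3 FPKM in dorsal CA1, 76.4 ± 24.6 FPKM in SST interneurons and 84.8 ± 33.1 FPKM in amygdala-projecting cells. These shares are of RNA and carry no test.

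**Figure D2:**
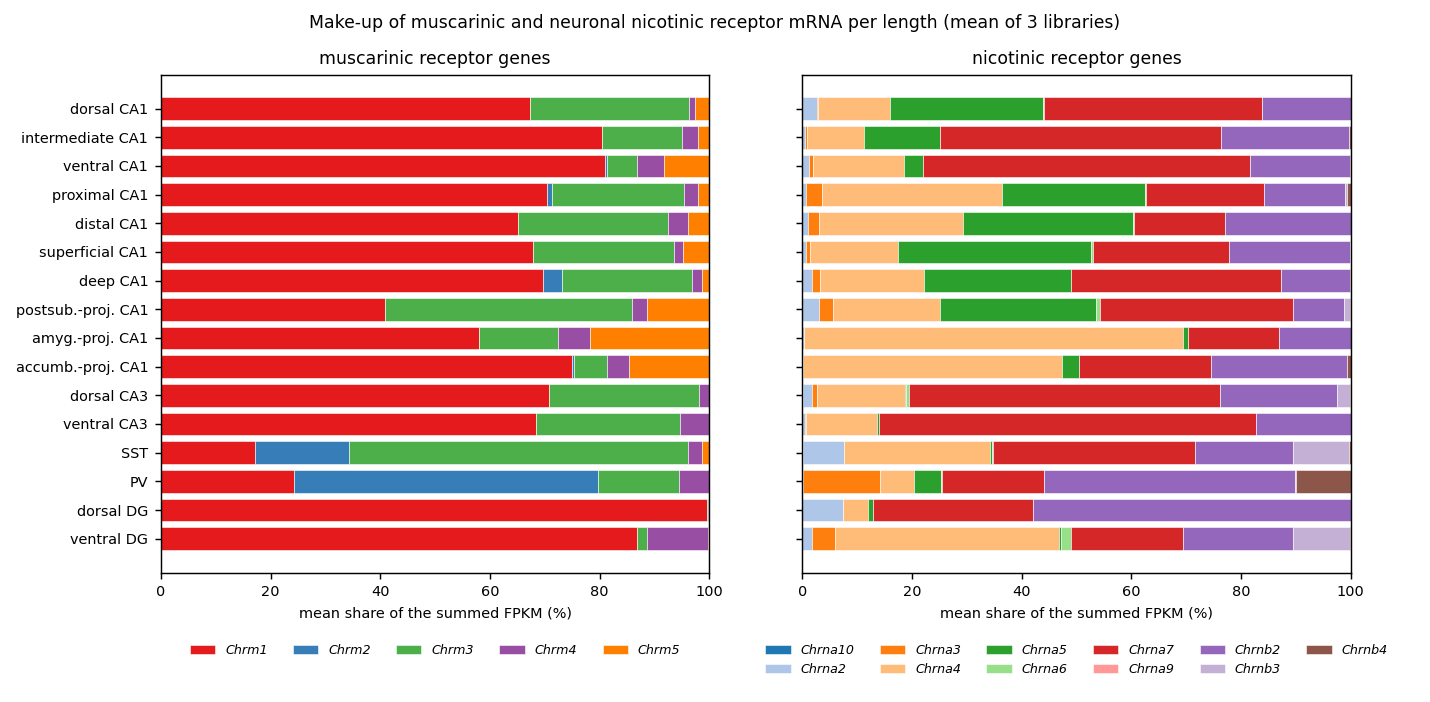
Mean share (%) of each gene in the summed FPKM of the muscarinic genes (left) and the neuronal nicotinic genes (right) for each population, mean of 3 libraries per bar. Chrm1 takes most of the muscarinic sum in every excitatory population except postsubiculum-projecting cells (40.8%), Chrm2 leads in PV interneurons with 55.5%, and Chrna4 leads the nicotinic sum in amygdala-projecting cells with 69.1%.

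Promoters are printed for the listed genes called different between dorsal and ventral cells by more than 2 log2 units in at least 1 region. Without the limit on size, 15.1% of all genes tested were called in CA1 and 19.4% in the DG, so nothing is read from how many met this rule. They were Chrm3 and Chrna5 in CA1, and Chrm3, Chrm4 and Chrna4 in the DG. Their promoters are shown because they are the stretches that precede the transcripts whose levels differ. The sequences are from RefSeq (GRCm38.p6), each being the part of the 250 bases before a listed start that lies outside annotated exons (GENCODE vM21), printed 5′ to 3′ on the strand of the gene. Capitals mark GC boxes, the letters GGGCGG on either strand (CCGCCC when read on the other).
Chrm3, chr13:10360848-10361053, minus strand: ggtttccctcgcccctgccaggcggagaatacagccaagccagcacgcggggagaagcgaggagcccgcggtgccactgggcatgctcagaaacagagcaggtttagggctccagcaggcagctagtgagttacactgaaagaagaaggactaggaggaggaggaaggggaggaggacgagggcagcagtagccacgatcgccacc
Chrna5 first start, chr9:54980630-54980879, plus strand: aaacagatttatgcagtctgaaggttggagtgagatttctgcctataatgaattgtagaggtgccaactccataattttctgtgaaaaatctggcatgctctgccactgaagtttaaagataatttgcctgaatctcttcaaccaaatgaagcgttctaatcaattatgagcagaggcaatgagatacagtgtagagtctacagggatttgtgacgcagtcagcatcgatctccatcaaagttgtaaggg
Chrna5 second start, chr9:54981248-54981465, plus strand: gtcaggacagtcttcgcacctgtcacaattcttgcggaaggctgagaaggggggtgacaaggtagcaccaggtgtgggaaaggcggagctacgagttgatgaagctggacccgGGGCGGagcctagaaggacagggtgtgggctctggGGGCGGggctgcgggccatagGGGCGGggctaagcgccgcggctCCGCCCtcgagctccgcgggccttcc
Chrm4, chr2:91921939-91922188, plus strand: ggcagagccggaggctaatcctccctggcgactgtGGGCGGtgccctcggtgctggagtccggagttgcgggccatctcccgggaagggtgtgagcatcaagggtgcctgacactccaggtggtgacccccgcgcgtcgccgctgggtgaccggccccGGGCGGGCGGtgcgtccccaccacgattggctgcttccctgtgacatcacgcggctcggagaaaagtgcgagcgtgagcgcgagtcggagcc
Chrna4, chr2:181039306-181039427, minus strand: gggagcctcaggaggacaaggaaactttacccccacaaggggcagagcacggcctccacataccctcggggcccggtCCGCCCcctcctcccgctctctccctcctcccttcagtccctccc
Of all 32851 RefSeq mouse promoters of 250 bases, 32.7% held at least 1 GC box. The printed stretches held 4 for the second Chrna5 start, 3 for Chrm4, 1 for Chrna4 and 0 for Chrm3 and the first Chrna5 start, those of Chrm4 including a pair that overlap, and the full 250 bases of Chrna4 held 3. None of the 4 other motifs searched on both strands, the E-boxes CAGCTG and CACGTG, the cyclic AMP element TGACGTCA and the TATA box TATAAA, lay in any printed stretch, which 4271, 1978, 508 and 4063 of all 32851 promoters held. A match is a match of letters only. Promoters of Chrm1 and Chrna2 are not shown.

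Chrm1, which encodes the Gq-coupled M1 receptor, was read in every library. The dorsal CA1 libraries held 420.0, 384 and 371 CPM and the ventral ones 305, 302 and 285 CPM. Intermediate CA1 libraries lay between at 364, 325 and 364 CPM. All 3 dorsal libraries were above all 3 ventral ones, by 0.34 on the log2 scale (SE 0.10, edgeR adjusted p = 0.0272). This call was lost without dorsal CA1 replicate 1 or ventral CA1 replicate 2 or 3 (adjusted p up to 0.132), and with total-count scaling, with FPKM, and in 1 fit to all 48 libraries (0.0197 to 0.453 over the settings other than omissions). Depth and markers of other cells moved with the long axis of CA1. Ventral libraries held 5.12 to 8.35 M gene reads with ERCC at 2.72% to 8.29% of gene and ERCC reads, against 22.1 to 30.1 M and 0.511% to 1.01% in dorsal ones. Of 6 GABAergic genes, 4 were read in ventral CA1 (sum 14.5 to 18.9 CPM, Dlx6 and Lhx6 at 0) and 2 in dorsal CA1 (0.0399 to 1.49 CPM, with Gad1 and Slc32a1 also at 0). Of 5 oligodendrocyte genes, 4 were read in ventral (48.6 to 67.2 CPM, Mag at 0) and 5 in dorsal CA1 (13.8 to 27.1 CPM). The part of these in the differences of Chrm1, Chrm3, Chrna5 and the pathway genes between dorsal and ventral CA1 was not tested.

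Postsubiculum-projecting cells, which are dorsal CA1 cells too, had the lowest mean Chrm1 of the 14 excitatory populations, at 150, 138 and 144 CPM. None of these libraries came near the dorsal CA1 range of 371 to 420.0 CPM. The difference was -1.40 log2 (SE 0.11, 95% interval -1.65 to -1.16, edgeR adjusted p = 3.86e-05), and it was called under every alternative and without any 1 of the 6 libraries. The share of reads outside annotated genes was 42.7% to 43.6% in the postsubiculum-projecting and 26.8% to 32.7% in the dorsal CA1 libraries, and mitochondrial genes took 11.3% to 13.4% and 9.41% to 9.73%. The part of these in the result was not tested.

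The interneurons were lower still, with 29.6, 29.8 and 54.5 CPM in PV and 19.4, 14.2 and 30.1 CPM in SST libraries. Against dorsal CA1 the difference was -3.39 log2 for PV (SE 0.33, edgeR adjusted p = 7.68e-06) and -4.21 log2 for SST cells (SE 0.34, edgeR adjusted p = 2.08e-06). PV and SST cells overlapped and were not called different (0.82 log2, 95% interval 0.16 to 1.48, edgeR adjusted p = 0.143). Mitochondrial genes took 19.03% to 24.49% of gene reads in PV and 14.6% to 19.9% in SST libraries, against 9.41% to 9.73% in dorsal CA1. Oligodendrocyte genes summed to 50.4 to 735 CPM in SST (5 of 5 read) and 5.20 to 34.3 CPM in PV libraries (4 of 5, Mag at 0), against the dorsal CA1 sums given above. The part of these in the interneuron comparisons, for Chrm1 and the genes below, was not tested.

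In order of mean level, superficial, dorsal, proximal, deep and intermediate CA1 came first (427 to 351 CPM), followed after a gap by ventral CA1, dorsal CA3, dorsal DG, ventral CA3, distal CA1, accumbens-projecting, ventral DG and amygdala-projecting cells (297 to 192 CPM). Neighbours within each of these runs overlapped, and of the 15 neighbouring pairs only 3 did not.

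Smaller Chrm1 differences were seen between dorsal and ventral granule cells and along the transverse axis of CA1. Dorsal granule cells, at 356, 237 and 247 CPM, stood above ventral ones at 200, 193 and 212 CPM, by 0.50 log2 (SE 0.14, edgeR adjusted p = 0.0205), a call lost without dorsal DG replicate 1 or ventral DG replicate 1 or 2 (adjusted p up to 0.127) and in 1 fit to all 48 libraries. Dorsal DG libraries held 6.78 to 7.85 M gene reads and ventral ones 14.8 to 16.5 M. ERCC took 2.68% to 4.06% in dorsal and 0.969% to 1.33% in ventral DG libraries. Of 6 GABAergic genes, 3 were read in dorsal DG (sum 89.45 to 107.9 CPM, Dlx1, Dlx6 and Lhx6 at 0) and 4 in ventral DG (43.0 to 62.7 CPM, Slc32a1 and Lhx6 at 0). Gad1 made up most of these sums, at 62.6 to 79.9 CPM in dorsal and 40.7 to 56.5 CPM in ventral DG. The part of these in the dorsal to ventral DG differences of Chrm1, Chrm3, Chrm4, Chrna4 and the pathway genes was not tested. Proximal CA1, at 356, 382 and 398 CPM, did not overlap distal CA1 at 247, 218 and 303 CPM, but the difference of 0.57 log2 (95% interval 0.27 to 0.87) was not called by edgeR (adjusted p = 0.0780). DESeq2 called it, as did edgeR with no low-count filter and without distal CA1 replicate 3.

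Chrm3, the other Gq-coupled gene, showed a steeper fall along the CA1 long axis. Dorsal CA1 libraries held 84.7, 76.3 and 76.7 CPM, intermediate ones 45.9, 18.6 and 26.8 CPM and ventral ones 16.2, 11.1 and 1.85 CPM. No library of one level overlapped the next. Dorsal exceeded ventral cells by 2.98 log2 (SE 0.62, 95% interval 1.59 to 4.36, edgeR adjusted p = 0.00902), and this call held under every alternative and omission run (adjusted p at most 0.0471). The differences in depth and in GABAergic and oligodendrocyte genes given for Chrm1 apply to the same libraries. The steps from dorsal to intermediate (1.34 log2, 95% interval 0.07 to 2.61, edgeR adjusted p = 0.274) and from intermediate to ventral cells (1.64 log2, 0.28 to 2.99, adjusted p = 0.193) were not called, although the first was called without ventral CA1 replicate 3.

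In CA3 the same gene stood at 53.1, 43.8 and 48.4 CPM in dorsal and 37.5, 50.0 and 45.3 CPM in ventral cells, overlapping ranges that differed by 0.13 log2 (95% interval -0.87 to 1.14). Granule cells had almost none: dorsal DG libraries held 0.127, 0 and 0.412 CPM (4 reads in all) and ventral ones 2.29, 0.916 and 2.63 CPM (101 reads). The ventral granule cells were nevertheless higher in every library, so that dorsal minus ventral was -3.38 log2 (SE 0.83, edgeR adjusted p = 0.00685; not called with FPKM). The DG values of depth, ERCC and GABAergic genes given for Chrm1 apply to these libraries. Averaged over the long axis, Chrm3 was 5.53 log2 higher in CA1 (edgeR adjusted p = 1.19e-08) and 6.25 log2 higher in CA3 than in the DG (edgeR adjusted p = 2.25e-09); CA1 and DG ranges overlapped only through the lowest ventral CA1 library.

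Among interneurons, SST libraries held 26.3, 22.4 and 50.5 CPM of Chrm3 and PV libraries 20.9, 4.20 and 1.79 CPM. The ranges did not overlap, but the difference of -1.89 log2 (95% interval -3.39 to -0.40) was not called by edgeR (adjusted p = 0.137). PV cells were below dorsal CA1 (-3.15 log2, SE 0.72, edgeR adjusted p = 0.00531), a call lost with no low-count filter. The order of means ran from superficial (82.8 CPM) and dorsal CA1 through postsubiculum-projecting cells (65.4 ± 5.34 CPM, SD, n = 3), CA3, SST, intermediate CA1 and the ventral projection classes to PV and DG. Of 15 neighbouring pairs, 14 overlapped, the exception being ventral and dorsal DG. Chrm3 overlaps a long non-coding RNA gene on the reference assembly, and as the strand used in counting is not given, reads from such an overlap cannot be told apart.

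Chrm2, which encodes the Gi-coupled M2 receptor, had its highest means in PV and SST interneurons. Only PV cells stood apart from every other population, as the SST range overlapped that of deep CA1. PV libraries held 65.7, 75.5 and 109 CPM and SST libraries 25.98, 24.98 and 6.39 CPM, whereas dorsal CA1 libraries held no read. With dorsal CA1 set to a floor of 3 reads per library (0.119 CPM), PV cells were at least 699.5-fold and SST cells at least 160.5-fold higher (edgeR adjusted p = 2.93e-06 and 1.15e-05). A floor covers counting error only, since amplified reads without molecular tags are not independent molecules. PV exceeded SST cells by 2.12 log2 (SE 0.49, edgeR adjusted p = 0.0312) without overlap. That call was lost without SST replicate 1 or any 1 PV replicate (adjusted p up to 0.110), with total-count scaling, and in 1 fit to all 48 libraries.

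Deep CA1 was the pyramidal population with most Chrm2, at 4.78, 34.5 and 3.92 CPM (75, 425 and 49 reads). Superficial libraries held 0, 0.0830 and 0.0501 CPM (0, 2 and 1 reads), below every deep library. With 3 reads against 549, the ratio of summed levels was 309 (95% exact binomial interval 105 to 1504, counting error only), and edgeR called the gene at an adjusted p of 0.00451. The call held without each of the 6 libraries in turn (adjusted p at most 0.0444). Of the alternatives that tested it, only 1 fit to all 48 libraries lost the call. With FPKM the gene was not tested here. GABAergic genes moved with it: Gad2, an enzyme of GABA synthesis, stood at 114, 372 and 561 CPM in deep and 11.6, 12.4 and 101 CPM in superficial libraries, and Lhx6, a factor of the PV and SST lineages, at 5.92, 19.8 and 17.0 CPM against 0, 0 and 2.66 CPM. Deep replicate 2, with the most Chrm2, held the most Lhx6 of the 3 and less Gad2 than replicate 3. The part of GABAergic RNA in the Chrm2 difference was not tested.

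In proximal, ventral, accumbens-projecting and postsubiculum-projecting CA1, most Chrm2 reads came from 1 library. Proximal CA1 replicate 1 held 11.4 CPM (258 reads), with 44.3 CPM of Gad2 and 80.5 CPM of Pvalb, while the other 2 proximal libraries held no Chrm2 read and 1.89 and 1.45 CPM of Gad2. Ventral CA1 replicate 1 held 4.26 CPM (34 reads) with 12.8 CPM of Gad2, against 1 and 3 reads of Chrm2 and 11.2 and 14.4 CPM of Gad2 in the other 2 ventral libraries. Intermediate CA1 libraries held 2, 2 and 3 reads. Accumbens-projecting replicate 2 held 3.80 CPM of Chrm2 with 0.717 CPM of Gad2, and postsubiculum-projecting replicate 2 held 1.53 CPM with 57.8 CPM of Gad2. Dorsal CA3, amygdala-projecting CA1 and ventral DG held 2, 1 and 1 reads in all, and dorsal CA1, distal CA1, ventral CA3 and dorsal DG none. PV stood apart from SST cells at the head of the order, and intermediate CA1 (0.272 CPM) from superficial CA1 (0.0444 CPM); the other 13 neighbouring pairs overlapped. Chrm2 overlaps a long non-coding RNA gene and a microRNA gene on the reference assembly, whose reads could not be separated if strand was not used.

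**Figure D3:**
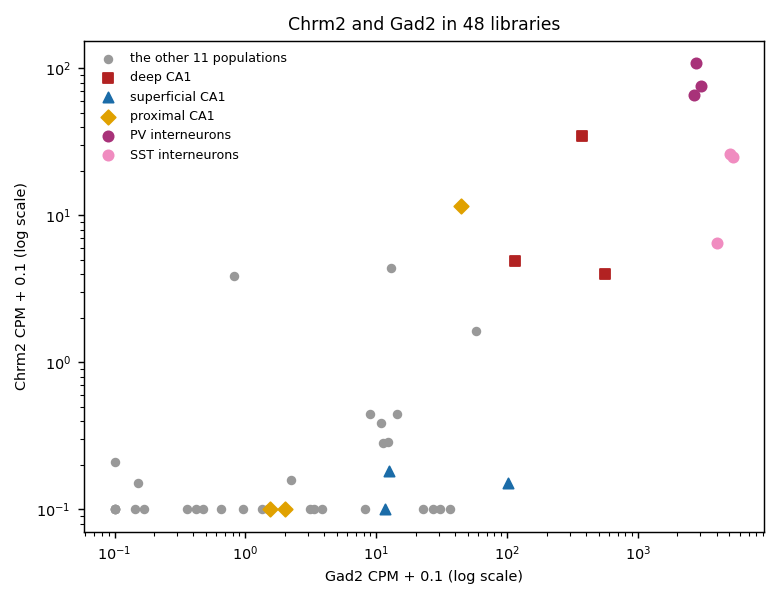
Chrm2 against Gad2 (both CPM + 0.1, log axes), each point 1 of the 48 libraries; deep, superficial and proximal CA1, PV and SST libraries are marked and the other 11 populations are grey. PV libraries hold 65.7 to 109 CPM of Chrm2, the deep CA1 libraries 3.92 to 34.5 CPM, and most grey points sit at 0.

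Chrm4, the other Gi-coupled gene, was low throughout, at 0.137 to 19.2 CPM. It overlaps the protein-coding gene Mdk on the reference assembly, and without the strand used in counting, reads from the overlap cannot be told apart at these low levels. Ventral granule cells held most, 12.6, 19.2 and 6.69 CPM (636 reads), and dorsal granule cells least, 1.52, 0.137 and 0.138 CPM (14 reads). The groups did not overlap, and dorsal minus ventral was -4.36 log2 (SE 0.92, 95% interval -6.28 to -2.44, edgeR adjusted p = 0.00230), called under every alternative and omission run. This was the only comparison between 2 populations or regions in which Chrm4 was called. The DG values of depth, ERCC and GABAergic genes given for Chrm1 apply here too. In CA3 ventral libraries (10.8, 12.6 and 6.79 CPM) also lay above dorsal ones (4.99, 5.82 and 0.9997 CPM) without a call (-1.35 log2, 95% interval -2.97 to 0.26, edgeR adjusted p = 0.485). All 15 neighbouring pairs in its order overlapped.

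Chrna4, the alpha4 subunit gene, reached its highest levels in ventral CA1 cells chosen by projection. Amygdala-projecting libraries held 114, 98.1 and 218 CPM, accumbens-projecting ones 78.5, 25.7 and 141 CPM, and ventral CA1 libraries without that selection 11.2, 13.4 and 30.0 CPM. All amygdala-projecting libraries were above all ventral ones, by 2.99 log2 (SE 0.56, 95% interval 1.79 to 4.18, edgeR adjusted p = 0.00914), while the accumbens-projecting range overlapped the ventral one. That second difference was 2.20 log2 (95% interval 1.04 to 3.36, edgeR adjusted p = 0.0511), just outside the threshold, and was called by DESeq2. It was also called by edgeR with size factors by relative log expression (RLE), with no low-count filter, in 1 fit to all 48 libraries, and without ventral CA1 replicate 3 or accumbens-projecting replicate 2.

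The projection classes themselves were not called different (0.79 log2, 95% interval -0.32 to 1.90, edgeR adjusted p = 0.670). The amygdala call was lost without ventral CA1 replicate 1 or 2 or amygdala-projecting replicate 3 (adjusted p up to 0.0725). Endothelial genes differed between these groups: 3 of 4 were detected in both projection classes, with sums of 38.4 to 99.8 CPM in the amygdala class and 11.8 to 53.4 CPM in the accumbens class against 0 to 3.93 CPM in ventral CA1, while Cldn5 was at 0 in all 9 libraries. Mitochondrial genes took 15.4% to 20.2% of gene reads in the projection classes and 11.3% to 12.9% in ventral CA1. Gene reads came to 13.8 to 20.9 M in the projection classes and 5.12 to 8.35 M in ventral CA1. Accumbens-projecting replicate 3, with the most Chrna4 of its class, held 506 CPM of Sst, 36.8 CPM of Gad2 and 0.240 CPM of Lhx6. Replicates 1 and 2 of that class held 5.70 and 0.359 CPM of Sst and 0.864 and 0.717 CPM of Gad2. The part of any of these in the Chrna4 differences was not tested.

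Chrna4 also separated the granule cells, with 47.8, 68.7 and 46.4 CPM in ventral and 4.19, 1.10 and 3.02 CPM in dorsal DG libraries. Dorsal minus ventral was -4.26 log2 (SE 0.62, 95% interval -5.56 to -2.96, edgeR adjusted p = 6.67e-05), called under every alternative and omission run. The same DG libraries differed in depth, ERCC and GABAergic genes, as given for Chrm1. Along CA1 the gene did not follow the long axis, as dorsal (21.4, 17.8 and 21.2 CPM) and ventral libraries overlapped and differed by 0.09 log2 (95% interval -1.08 to 1.25, edgeR adjusted p = 0.951). SST interneurons held 53.2, 78.7 and 33.7 CPM and PV interneurons 5.65, 5.56 and 12.1 CPM. PV cells were below SST cells (-2.84 log2, SE 0.43, edgeR adjusted p = 0.00164), called in every alternative.

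Against dorsal CA1, Chrna4 was called lower in PV cells (-1.39 log2, edgeR adjusted p = 0.0213) and higher in SST cells (1.45 log2, adjusted p = 0.0185). Both calls were lost without dorsal CA1 replicate 1 or 3 and in 1 fit to all 48 libraries; the PV call also without PV replicate 1 or 2 (adjusted p up to 0.0787), and the SST call also without dorsal CA1 replicate 2 or SST replicate 2 (up to 0.108). Deep CA1 (29.8, 48.1 and 37.4 CPM) did not overlap superficial CA1 (14.5, 17.6 and 17.7 CPM), but edgeR did not call the difference (superficial minus deep -1.27 log2, 95% interval -1.94 to -0.60, adjusted p = 0.0528); it was called by DESeq2, with no low-count filter and without deep CA1 replicate 1. In the order of means, superficial CA1 (16.6 CPM), PV (7.77 CPM) and dorsal DG (2.77 CPM) closed the list without overlap, and the other 13 pairs of neighbours overlapped.

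Chrna5, the accessory subunit gene, had its 7 highest means in CA1 populations, from deep CA1 at 27.0 CPM to intermediate CA1 at 13.2 CPM. The next population, PV interneurons at 3.34 CPM, did not overlap intermediate CA1, and among the other neighbours only ventral CA3 and ventral DG did not overlap. Dorsal CA1 libraries held 25.1, 22.6 and 17.3 CPM, intermediate ones 19.4, 8.34 and 11.9 CPM and ventral ones 2.76, 1.99 and 3.12 CPM. Dorsal and intermediate ranges overlapped and both stood clear of the ventral range. Dorsal exceeded ventral cells by 2.97 log2 (SE 0.42, edgeR adjusted p = 5.00e-05) and intermediate exceeded ventral cells by 2.30 log2 (SE 0.42, edgeR adjusted p = 0.00226). Both calls were lost only in 1 fit to all 48 libraries, and the differences in depth and markers given for Chrm1 apply here too.

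In CA3 and the DG, Chrna5 was almost absent from the reads, at 1, 0 and 1 reads in dorsal CA3, 9 reads in each ventral CA3 library, 0, 4 and 0 in dorsal DG, and 3, 3 and 4 in ventral DG. Averaged over the long axis it was 5.96 log2 higher in CA1 than in CA3 (edgeR adjusted p = 1.88e-06) and 5.28 log2 higher than in the DG (edgeR adjusted p = 3.00e-06), with no overlap in either. In SST interneurons (1.65, 0 and 0.200 CPM) it was called lower than in dorsal CA1 (-5.17 log2, SE 1.36, edgeR adjusted p = 0.0135). PV libraries (7.35, 0.265 and 2.396 CPM) were also below the dorsal CA1 range, without a call (-2.70 log2, 95% interval -5.30 to -0.11, edgeR adjusted p = 0.110), although FPKM and 1 fit to all 48 libraries gave one. On the reference assembly Chrna5 overlaps Chrna3, and since it is not stated whether counting used strand, reads from the overlap cannot be told apart.

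**Figure D4:**
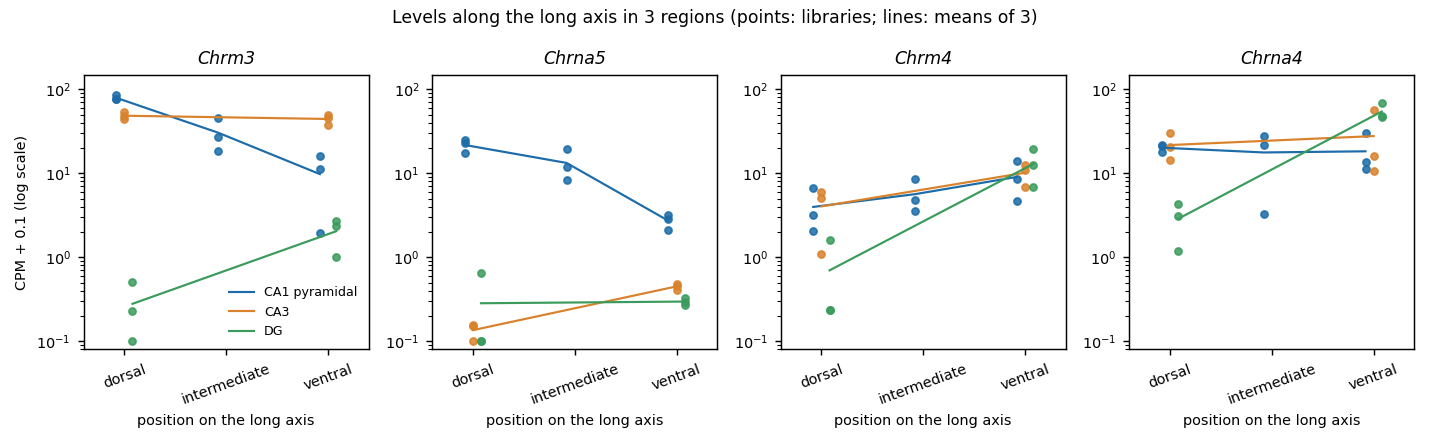
Chrm3, Chrna5, Chrm4 and Chrna4 (CPM + 0.1, log axes) from dorsal to ventral cells of CA1, CA3 and DG, with intermediate cells for CA1; points are libraries and lines join the means of 3. Chrm3 and Chrna5 fall in CA1 from 79.2 to 9.69 CPM and from 21.7 to 2.62 CPM, while Chrm4 and Chrna4 rise in the DG from 0.600 to 12.8 CPM and from 2.77 to 54.3 CPM.

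Whether a long-axis difference was unlike that of another region was tested directly, as the interaction of region and axis. The dorsal minus ventral difference in CA1 exceeded that in CA3 by 2.87 log2 for Chrm3 (SE 0.71, edgeR adjusted p = 0.0223) and by 6.07 log2 for Chrna5 (SE 1.29, edgeR adjusted p = 0.00714), 2 of 8 genes tested beside 3.52% of all genes. The Chrm3 call was lost without dorsal CA1 replicate 1 or 3, dorsal CA3 replicate 2 or 3 or ventral CA3 replicate 2 (adjusted p up to 0.0673), and both were lost in 1 fit to all 48 libraries. Part of the Chrna5 value came from CA3, where dorsal libraries held 1, 0 and 1 reads and ventral ones 9 each. That CA3 difference was itself not called by edgeR (adjusted p = 0.0986). Against the DG, the CA1 difference was greater by 6.38 log2 for Chrm3 (SE 0.95, edgeR adjusted p = 0.000180) and by 4.37 log2 for Chrna4 (SE 0.80, edgeR adjusted p = 0.00143), 2 of 8 beside 9.71% of all genes. Those 2 calls held in every alternative, and Chrm4 (3.11 log2, 95% interval 0.69 to 5.53, edgeR adjusted p = 0.0963) was called by DESeq2 and without dorsal DG replicate 1. Chrna5 was not called by edgeR against the DG but had an unadjusted p under 0.05 (2.53 to 7.84 log2 over the omissions). DESeq2 called 4 receptor genes in this test and limma on FPKM 3. The comparisons with CA3 and with the DG share the CA1 libraries. Of the pathway genes, Kcnq3 (1.82 and 1.59 log2), Kcnq5 (2.69 and 4.42 log2) and Lypd1 (3.49 and 3.27 log2) had a more dorsal difference in CA1 than in CA3 and in the DG, and Itpr1 a more ventral one (-2.90 and -1.75 log2). Against the DG only, Gnaq (0.78 log2) and Gna11 (-1.20 log2) were called as well.

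Chrna7, whose product forms calcium-permeable receptors, was highest in ventral CA3, at 66.9, 60.6 and 74.2 CPM, above dorsal CA3 at 41.7, 34.4 and 26.3 CPM. These did not overlap, but the difference was not called in the fit over 3 regions (-0.98 log2, 95% interval -2.04 to 0.08, edgeR adjusted p = 0.407). Granule cells were low, at 17.5, 12.3 and 1.24 CPM in dorsal and 17.4, 7.39 and 18.3 CPM in ventral libraries. Averaged over the axis, Chrna7 was 1.40 log2 higher in CA1 (SE 0.37, edgeR adjusted p = 0.00593) and 1.96 log2 higher in CA3 than in the DG (SE 0.37, edgeR adjusted p = 0.000305), and both were called in every alternative.

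Within CA1, Chrna7 differed by depth, with 34.3, 35.5 and 34.8 CPM in deep and 13.02, 13.95 and 14.2 CPM in superficial libraries. The ranges were narrow and apart (superficial minus deep -1.40 log2, SE 0.30, edgeR adjusted p = 0.0277). The call was lost without any 1 superficial library or deep replicate 2 or 3 (adjusted p up to 0.177), with FPKM, and in 1 fit to all 48 libraries. GABAergic genes were higher in the same deep libraries, as given above, and their part in the Chrna7 difference was not tested. SST interneurons held 48.9, 30.3 and 68.1 CPM of Chrna7. PV interneurons held 3.59, 12.8 and 14.7 CPM, below every SST library (-2.27 log2, SE 0.50, edgeR adjusted p = 0.0179). PV cells were also called lower than dorsal CA1 (-1.40 log2, edgeR adjusted p = 0.0464), which was lost without any 1 dorsal CA1 library, PV replicate 1 or 2 or SST replicate 1 (adjusted p up to 0.139), with total-count scaling and in 1 fit to all 48 libraries. All 15 neighbouring pairs in the order from ventral CA3 to distal CA1 (9.30 CPM) overlapped.

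Chrna2 was highest in SST interneurons, at 9.87, 8.03 and 43.8 CPM, and nearly absent in PV interneurons, where 1 read was found in 3 libraries. The ratio of summed SST to PV levels was 1559 (95% exact binomial interval 279 to 61640, counting error only; edgeR adjusted p = 0.000374). Dorsal CA1 held 3.87, 3.65 and 2.57 CPM, itself above PV cells (ratio 257, interval 45.7 to 10180; edgeR adjusted p = 0.000293; not called with FPKM) and below SST cells (2.62 log2, SE 0.77, edgeR adjusted p = 0.0238). The SST excess over dorsal CA1 was lost without any 1 dorsal library or SST replicate 3 (adjusted p up to 0.244) and in 1 fit to all 48 libraries. Microglial genes were read in the same SST libraries, at the sums given above, against 0.478 to 1.22 CPM and with Cx3cr1 and C1qa at 0 in dorsal CA1, and their part in the result was not tested. Dorsal DG libraries disagreed among themselves, at 11.8, 5.24 and 0 CPM, and all 15 neighbouring pairs overlapped.

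Chrnb2, the partner of alpha4, was read at like levels in most populations, its highest library standing at 2.55 times its median of 35.4 CPM. PV libraries held 59.1, 90.1 and 60.3 CPM and SST libraries 53.2, 73.3 and 54.9 CPM, all above dorsal CA1 at 37.4, 29.5 and 24.1 CPM. The excess was 1.18 log2 in PV (SE 0.28, edgeR adjusted p = 0.00669, called in every alternative) and 0.99 log2 in SST cells (SE 0.28, edgeR adjusted p = 0.0189). The SST call was lost without dorsal CA1 replicate 2 or 3 or SST replicate 2 (adjusted p up to 0.0941) and in 1 fit to all 48 libraries. Postsubiculum-projecting cells had the lowest mean, from 13.4, 12.6 and 13.5 CPM, just under the lowest proximal CA1 library at 13.7 CPM (-1.17 log2 against dorsal CA1, SE 0.33, edgeR adjusted p = 0.0436). This last call was lost without any 1 of the 6 libraries (adjusted p from 0.0516 to 0.227), with FPKM, and in 1 fit to all 48 libraries. It was the only population apart from its neighbour in the order, proximal CA1, the other 14 pairs of neighbours overlapping. Chrnb2 overlaps Adar on the reference assembly.

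**Figure D5:**
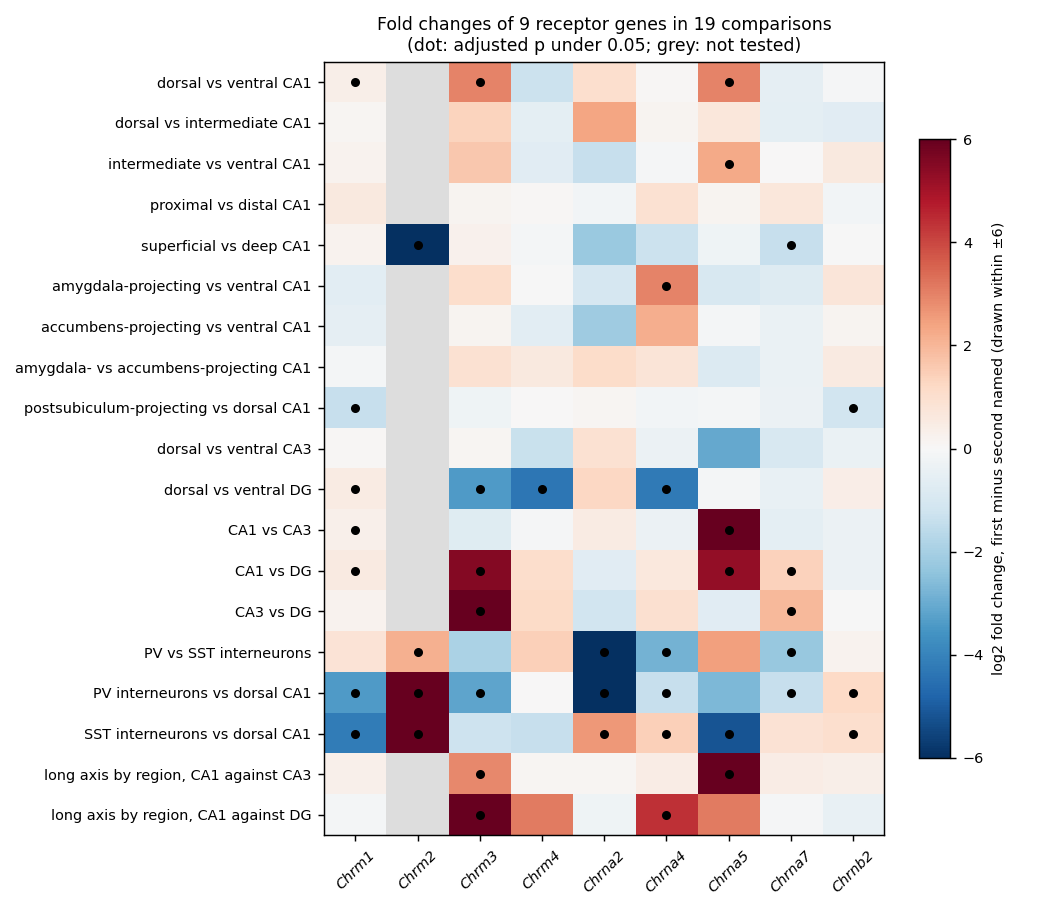
Log2 differences of the 9 genes in 19 comparisons (first minus second population, drawn within -6 to 6), from edgeR; a dot marks an adjusted p under 0.05 and grey marks a gene not tested for low counts. Most dots lie in the interneuron comparisons and in those that involve the DG.

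Counted by comparison, 3 of the 8 genes tested by edgeR were called higher in dorsal than in ventral CA1 and none lower, beside 15.1% of all genes called. The median absolute log2 difference of these 8 was 0.78, against 0.38 over all genes tested. With no low-count filter and with DESeq2, 4 genes were called, the added gene being Chrm2. Chrm2 had no read in dorsal and 34, 1 and 3 reads in ventral libraries, a higher ventral level that rests mostly on ventral CA1 replicate 1. The intermediate to ventral step gave 1 of 8 (5.03% of all genes). The dorsal to intermediate step gave 0 of 8 by edgeR (4.93%), with 4 genes at an unadjusted p under 0.05 and 0 called by DESeq2 or by limma on FPKM. Downstream genes were taken from a pathway list of 45 genes, of which 44 are in the table. Of the 26 listed genes tested along CA1, 8 were called higher dorsally and 5 ventrally, with a median absolute difference of 0.55 log2. In the Gq arm 5 of 9 were higher dorsally: Gnaq, the G protein itself (1044 against 694 CPM, 0.53 log2, edgeR adjusted p = 0.000228), the phospholipase genes Plcb1 (427 against 297 CPM) and Plcb4 (16 against 2.86 CPM), and the M-channel genes Kcnq3 (220.3 against 65.1 CPM, 1.70 log2, edgeR adjusted p = 4.15e-06) and Kcnq5 (140.0 against 34.6 CPM, 1.95 log2, edgeR adjusted p = 6.60e-07). Itpr1, the calcium store channel, was lower dorsally (792 against 1120.0 CPM, -0.56 log2).

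The Gi arm moved both ways along CA1, 3 of 7 tested being higher on the dorsal and 2 on the ventral side. Gnao1 (1318 against 969 CPM) and the inward rectifier genes Kcnj3 (356 against 234 CPM) and Kcnj6 (135 against 66.5 CPM) were higher dorsally, and Gnai1 (404 against 613 CPM) and Kcnj9 (39.8 against 62.3 CPM) ventrally. Of 6 chaperone and Ly6 genes tested, 2 were called, both higher ventrally: Tmem35a, which encodes a chaperone of nicotinic receptors (25.5 against 57.3 CPM), and Ly6h (23.4 against 39.1 CPM). Between dorsal and intermediate cells, Kcnq3 (0.75 log2) and Kcnq5 (1.46 log2) were higher dorsally and Itpr1 lower (-0.42 log2). Between intermediate and ventral cells, Gnaq (0.46 log2), Plcb4 (1.89 log2) and Kcnq3 (0.95 log2) were higher and Ly6e (-0.84 log2) and Kcnj9 (-0.87 log2) lower in the intermediate ones.

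Other CA1 axes gave few calls. Proximal and distal CA1 gave 0 of 8 by edgeR (1.06% of all genes), with 2 at an unadjusted p under 0.05 and 1 (Chrm1) called by DESeq2 and 0 by limma on FPKM, and none of 28 pathway genes was called. Superficial and deep CA1 gave 2 of 9 (2.48% of all genes), Chrm2 and Chrna7, both higher in deep cells, and 1 of 27 pathway genes, Plcb4 (10.4 against 41.5 CPM, -2.05 log2, edgeR adjusted p = 0.0101). GABAergic genes were higher in the deep libraries, as given above, and their part in the Plcb4 difference was not tested. Amygdala-projecting against ventral CA1 gave 1 of 8 (2.38%), Chrna4. Accumbens-projecting against ventral CA1 gave 0 of 8 by edgeR (2.04%), with 1 (Chrna4) at an unadjusted p under 0.05 and the same 1 called by DESeq2 and 0 by limma on FPKM. The 2 projection classes against each other gave 0 of 8 (0.0231%), with 0 at an unadjusted p under 0.05 and 0 called by DESeq2 or by limma on FPKM.

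Both projection classes share the ventral CA1 libraries as reference. Lynx1, whose product binds and restrains nicotinic receptors, was higher in amygdala-projecting (586 against 243 CPM, 1.28 log2, edgeR adjusted p = 0.00572) and in accumbens-projecting cells (559 CPM, 1.23 log2, adjusted p = 0.00933). Itpr1 was lower in both (-1.40 and -1.07 log2), Gnao1 was higher in both (0.51 and 0.53 log2), and Ly6e was higher in amygdala-projecting cells (353 against 131 CPM, 1.44 log2, edgeR adjusted p = 0.0296). Chrm5 stood at 23.0, 27.3 and 34.9 CPM in amygdala-projecting cells, 18.7, 24.7 and 18.8 CPM in accumbens-projecting cells, and 14.5, 7.61 and 15.01 CPM in ventral CA1 libraries, and it was at 0.104 CPM or below in every CA3 library and at 0 in every PV library.

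Postsubiculum-projecting against dorsal CA1 gave 2 of 8 (10.8% of all genes), Chrm1 and Chrnb2, both lower. Of 30 pathway genes, 4 were higher and 3 lower. Gnao1 (2043 against 1318 CPM, 0.67 log2, edgeR adjusted p = 0.000388), Kcnj3 (528 against 356 CPM) and Kcnj6 (252 against 135 CPM) of the Gi arm were higher, whereas Itpr1 (535 against 792 CPM) and the Ly6 family gene Lypd1 (87.4 against 153 CPM) were lower. The median absolute difference of the 8 receptor genes here was 0.20 log2, below the 0.54 log2 of all genes tested. The other 6 receptor genes were not called, and their differences ran from -0.36 log2 for Chrna7 (95% interval -1.06 to 0.34) to 0.13 log2 for Chrna2 (-1.67 to 1.93), intervals that leave room for larger differences.

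In CA3, dorsal against ventral cells gave 0 of 8 receptor genes by edgeR (4.97% of all genes), with 1 (Chrna5) at an unadjusted p under 0.05 and the same 1 called by DESeq2 and 0 by limma on FPKM. Of 34 pathway genes 5 were higher on the dorsal and 2 on the ventral side of CA3, Itpr1 (199.7 against 38.9 CPM, 2.36 log2, edgeR adjusted p = 1.38e-07), Gnaq (0.74 log2), Plcb1 (0.68 log2), Gnao1 (0.59 log2) and Kcnj3 (0.91 log2) being the dorsal ones and Lypd1 (26.5 against 92.3 CPM) and Ly6h (10.02 against 38.4 CPM) the ventral ones. Granule cell markers summed to 79.5 to 325 CPM in ventral CA3 libraries, and their part in these values was not tested.

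In the DG, 4 of 8 receptor genes were called (19.4% of all genes), Chrm1 being higher in dorsal and Chrm3, Chrm4 and Chrna4 in ventral granule cells. Depth, ERCC and GABAergic values of these libraries are given with Chrm1. Of 34 pathway genes, 4 were called higher dorsally and 6 ventrally. The nicotinic subunit gene Chrnb3, with no read in 3 dorsal libraries and 16.5, 15.8 and 14.3 CPM in the ventral ones, was at least 38.6-fold higher ventrally at a floor of 3 reads per library (edgeR adjusted p = 0.0211), and Ric3, a nicotinic receptor chaperone gene, stood at 64.7 against 111 CPM (-0.76 log2, edgeR adjusted p = 0.00207). Lypd1 (70.7 against 213 CPM) and Gnai1 (97.01 against 156 CPM) were ventral too. Higher in dorsal granule cells were Gna11 (94.2 against 50.9 CPM), Plcb1 (274 against 163 CPM), Itpr1 (384 against 168 CPM) and Kcnj6 (132 against 77.3 CPM).

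Between regions, CA1 against CA3 gave 2 of 8 receptor genes (13.5% of all genes), Chrm1 and Chrna5, both higher in CA1. The Chrm1 difference was small, 0.32 log2 with overlapping ranges (edgeR adjusted p = 0.0373), and it was lost in 13 of the omissions, among them any 1 CA1 or ventral CA3 library (adjusted p up to 0.146), and with no low-count filter, with FPKM and in 1 fit to all 48 libraries (up to 0.277). CA1 against DG gave 4 of 8 (33.1%), Chrm1, Chrm3, Chrna5 and Chrna7, all higher in CA1; the Chrm1 value was 0.53 log2 (edgeR adjusted p = 0.000348) and was not called with FPKM, the scale on which dorsal DG (115.5 FPKM) stood above dorsal CA1 (97.1 FPKM). CA3 against DG gave 2 of 8 (36.5%), Chrm3 and Chrna7, a share below that of all genes, and 5 of 8 without dorsal DG replicate 1. Regions share libraries in these 3 comparisons.

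The M-channel gene Kcnq5 differed between all 3 regions, at 87.3 CPM in CA1, 339 CPM in CA3 and 2.21 CPM in the DG (edgeR, CA1 minus CA3 -2.22 log2, adjusted p = 1.50e-07; CA1 minus DG 5.46 log2, adjusted p = 4.04e-12; CA3 minus DG 7.68 log2, adjusted p = 5.60e-14). Of 34 pathway genes, 10 were higher in CA1 and 0 in the DG, a share called that is below the 33.1% of all genes. Those of the Gq arm included Gnaq (0.91 log2), Plcb1 (0.76 log2), Itpr1 (1.90 log2), Kcnq3 (142.7 against 52.7 CPM) and Kcnq5. Ric3 (0.93 log2), Gnai1 (2.03 log2) and Gnao1 (1.12 log2) were also among them. Between CA1 and CA3, 4 of 34 were higher in CA1 and 6 in CA3. Itpr1 was higher in CA1 by 3.44 log2 (edgeR adjusted p = 1.08e-12), as were Kcnj3 (0.60 log2) and Kcnj9 (2.35 log2), while Lynx1 (-1.01 log2), Ly6e (-1.81 log2) and Gnao1 (-0.49 log2) were higher in CA3. Between CA3 and the DG, 12 of 34 were higher in CA3, among them Gnai1 (2.11 log2), Gnao1 (1.61 log2), Ly6e (1.43 log2), Lynx1 (1.31 log2), Kcnq3 (1.02 log2), Plcb1 (0.98 log2), Ric3 (0.96 log2) and Gnaq (0.80 log2), and 6 were higher in the DG, among them Kcnj9 (-2.39 log2), Itpr1 (-1.53 log2), Lypd1 (-1.32 log2) and Kcnj3 (-0.97 log2).

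The interneurons gave the most receptor calls. Of the 9 genes tested, 7 differed between PV cells and dorsal CA1 (29.7% of all genes), 6 between SST cells and dorsal CA1 (27.4%) and 4 between PV and SST cells (6.15%). The 2 comparisons with dorsal CA1 share its libraries. The median absolute difference of the 9 genes was 2.70 log2 for PV against dorsal CA1 and 1.45 log2 for SST, against 0.94 and 0.91 log2 over all genes. Higher in both were Chrm2 and Chrnb2, and lower in both was Chrm1. Chrna4 and Chrna2 went in opposite directions, lower in PV and higher in SST cells than in dorsal CA1.

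Of 35 pathway genes tested, 9 were higher and 12 lower in PV cells than in dorsal CA1, 8 higher and 11 lower in SST cells than in dorsal CA1, and 4 higher and 7 lower in PV than in SST cells. Chrna3 stood at 16.7, 10.9 and 7.76 CPM in PV libraries against a mean of 0.0757 CPM in SST (edgeR adjusted p = 0.00743), and Chrnb3 at 27.0, 21.8 and 49.4 CPM in SST libraries against a mean of 0.159 CPM in PV (edgeR adjusted p = 0.000449). The Ly6 family genes Lypd6 and Lypd6b reached 419.5 and 168 CPM in SST and 135 and 39.5 CPM in PV libraries, while in dorsal CA1 Lypd6 stood at 0.290 CPM and Lypd6b had no read. Lypd1 was the reverse, at 153 CPM in dorsal CA1 against 0.250 CPM in PV and 2.33 CPM in SST cells. Ache, the enzyme that breaks acetylcholine down, was at 119 CPM in SST, 22.5 CPM in PV and 11.7 CPM in dorsal CA1 libraries (SST against dorsal CA1 3.35 log2, edgeR adjusted p = 4.19e-05; PV against SST -2.42 log2, adjusted p = 0.00188).

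In the Gq arm, 1 of 10 tested genes was called higher and 6 lower in each interneuron class than in dorsal CA1. Over all genes tested, 29.7% were called for PV and 27.4% for SST cells against dorsal CA1. These are the libraries whose mitochondrial and oligodendrocyte values are given with Chrm1. Gnaq stood at 243 CPM in PV, 319.5 CPM in SST and 1044 CPM in dorsal CA1, Kcnq3 was lower by -2.68 log2 in PV and -1.86 log2 in SST cells, and Kcnq5 by -4.53 and -1.32 log2. Plcb1 and Itpr1 were also lower in both classes. The 1 higher gene in each was Plcb4 (97.04 CPM in PV and 179 CPM in SST against 16 CPM). Of the Gi arm, Gnao1, Kcnj3 and Kcnj6 were lower in both, by -1.08, -1.80 and -2.94 log2 in PV and -0.87, -3.06 and -4.10 log2 in SST cells, Kcnj9 was lower in SST cells (-1.33 log2) and Gnai2 higher there (1.02 log2). The chaperone gene Tmem35a was higher in PV (92.5 CPM) and SST (74.1 CPM) than in dorsal CA1 (25.5 CPM), Lynx1 (541 against 244 CPM) and Ric3 (0.51 log2) in PV cells, and Ly6h (65.9 against 23.4 CPM) in SST cells. PV and SST cells differed from each other in Itpr1 (289.6 against 60.0 CPM), Kcnj3 (103 against 42.6 CPM) and Kcnj6 (17.8 against 7.96 CPM), higher in PV cells, and in Kcnq5 (6.12 against 56.0 CPM) and Kcnq3 (-0.82 log2), lower in PV cells.

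For each receptor gene, the 3 genes with the most similar profile were taken, by Pearson's r of mean log2(CPM + 1) over the 16 populations, among 9883 genes. These are descriptions without a p, and the 16 means share libraries and scaling. Chrm2 was most like Erbb4 (0.98), a receptor gene of PV interneurons, Dlx6os1 (0.97) and Lhx6 (0.96). Chrna5 was most like the CA1 gene Wfs1 (0.97), Map4 (0.95) and Lefty1 (0.94). Chrm1 was most like Galnt16 (0.96), Eftud2 (0.96) and Mink1 (0.96), and Chrm3 most like Rtn4 (0.93), Samd5 (0.91) and St8sia3 (0.91). With a pseudocount of 0.1 in place of 1, Erbb4 and Lhx6 were no longer among the 3 for Chrm2. The same was true of Lefty1 for Chrna5 and St8sia3 for Chrm3.

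The remaining genes had weaker likenesses. Chrna7 was most like Ncoa7 (0.89), Nucb2 (0.85) and Pgap1 (0.82), Chrnb2 like Eef2 (0.90), Sat2 (0.88) and Azin2 (0.86), and Chrna4 like Mrpl57 (0.88), Rhbdd2 (0.86) and Washc5 (0.82). For Chrm4 they were Poc1a (0.83), Prpf3 (0.82) and Ccdc148 (0.81), and for Chrna2 Cst7 (0.83), Cd180 (0.77) and Carhsp1 (0.76), of which Cst7 and Cd180 are known from microglia, whose markers were read in the SST libraries as given above. Among the 9 receptor genes themselves, the highest r of any pair was 0.66, between Chrm3 and Chrna5, and the lowest -0.74, between Chrm1 and Chrm2. With the pseudocount of 0.1, none of the 3 genes given for Chrna2 stayed among its 3 most similar. Poc1a and Prpf3 for Chrm4, Pgap1 for Chrna7 and Sat2 for Chrnb2 did not stay either.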

How the data were processed

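Total RNA of hand-sorted fluorescent neurons was amplified with Ovation RNA-seq v2 after ERCC RNA was added and sequenced on an Illumina instrument, per the labels' protocols. The authors deposited raw read counts for 37620 Ensembl genes and a Cuffdiff table of FPKM values. Tools named in the submitters' processing notes are HTSeq, TopHat2 2.0.6, DESeq2 and Cuffdiff 2.1.1, with mm9 and NCBIM37 as builds and no role for each, and the strand used in counting is not given in the sources used here. The deposited FPKM are normalized values, of which 552 marked as failed were left out. They were used per length and, as log2(FPKM + 1) for genes at 1 or more in 3 libraries, in an alternative test; the pseudocount understates changes of low genes.

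Replicates are numbered 1 to 3 as in the count table, where titles run from 0 to 2. All 48 columns were mapped and 0 were not used. No replicate pair was a duplicate (lowest chi-square per degree of freedom 13.0, where 1 is expected of a repeat). Reads outside genes (20.4% to 46.7% of uniquely mapped reads) and ERCC reads were kept out of library sizes. Gene symbols, joined by Ensembl identifier from a reference of another build, covered 32897 identifiers.

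Counts were tested with edgeR 4.0.16 in R 4.3.3 (quasi-likelihood F test, robust, TMM scaling, filterByExpr on the groups fitted, Benjamini-Hochberg over all genes tested). The long-axis CA1 groups, the ventral projection groups, the 6 dorsal and ventral groups of 3 regions, and the interneurons with dorsal CA1 each shared a fit, and the other comparisons were fitted in pairs. Under the low-count filter, Chrm2 was too low to be tested outside the superficial to deep and interneuron comparisons. The alternatives were RLE and total-count scaling, no low-count filter, a replicate block, DESeq2 1.42.0, FPKM with limma 3.58.1, 1 fit to all 48 libraries, and each of 48 libraries omitted in turn. The test was checked on simulated data. The 9 genes and the pathway list were chosen with earlier results of these data known. By rule, the text names the 9 genes, pathway genes called with a mean of 10 CPM or more in the higher group, and the 3 genes most like each. A gene of the pathway list is not reported here.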

Additional observations from a re-analysis of the deposited data

Results flagged for a closer look

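The difference between dorsal and ventral cells was itself different between regions for 3 of the receptor genes, by the test of the interaction of region and axis. For Chrm3 the CA1 difference exceeded that of CA3 by 2.87 log2 and that of the DG by 6.38 log2. For Chrna5 it exceeded that of CA3 by 6.07 log2, and for Chrna4 it exceeded that of the DG by 4.37 log2. The Chrna5 value rests in part on CA3 libraries with 9 or fewer reads of the gene each. Chrm3 was called higher in dorsal cells of CA1 and in ventral cells of the DG, whereas Chrna4 was 0.09 log2 apart in CA1 and called higher in ventral cells of the DG. Adjusted p-values are given with these results above. Groups of 3 libraries were too small for a check of single libraries that stand apart.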

How the results depend on the processing

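Counts of receptor genes called that moved by over 1.5 times, or to or from 0, are given here. Smaller moves, as that of dorsal against ventral CA1 given above, are left out. With no low-count filter, 1 was called between proximal and distal CA1, 1 between accumbens-projecting and ventral CA1 and 1 between CA1 and CA3. DESeq2 gave 1 for proximal against distal CA1, 1 for accumbens-projecting against ventral CA1, 1 for dorsal against ventral CA3 and 4 for the CA1 against DG interaction. FPKM with limma-trend gave 0 for superficial against deep CA1 and 1 each for postsubiculum-projecting against dorsal CA1 and for CA1 against CA3. RLE scaling gave 1 for accumbens-projecting against ventral CA1. 1 fit to all 48 libraries gave 1 for dorsal against ventral CA1, 0 for intermediate against ventral CA1, 0 for superficial against deep CA1, 1 for accumbens-projecting against ventral CA1, 1 for postsubiculum-projecting against dorsal CA1, 1 for CA1 against CA3, 3 for SST against dorsal CA1 and 0 for the CA1 against CA3 interaction. With the replicate block, 1 was called for accumbens-projecting against ventral CA1 and 1 for postsubiculum-projecting against dorsal CA1, and it moved no other count by over 1.5 times. Under the block the calls of Chrnb2 (postsubiculum-projecting against dorsal CA1, adjusted p = 0.0791), Chrm2 (PV against SST, 0.0522) and Chrna2 (SST against dorsal CA1, 0.0802) were lost, and Chrna4 (accumbens-projecting against ventral CA1, 0.0105) and Chrna5 (PV against dorsal CA1, 0.0223) were called. The labels tie the numbers to no animal or day, and no same-numbered pair of libraries had deviations from the group means that correlated above 0.1, so the libraries were not treated as paired. The cause of these moves was not tested.

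With libraries omitted in turn, counts ranged over 2 to 3 for dorsal against ventral CA1, 0 to 1 for dorsal against intermediate, 0 to 1 for proximal against distal, 1 to 3 for superficial against deep, 0 to 1 for amygdala-projecting and 0 to 1 for accumbens-projecting against ventral CA1; 1 to 1 for postsubiculum-projecting against dorsal CA1, 0 to 1 for CA3, 3 to 4 for DG, 1 to 2 for CA1 against CA3, 4 to 5 for CA1 against DG, 2 to 5 for CA3 against DG, 3 to 5 for PV against SST, 5 to 7 for PV and 3 to 7 for SST against dorsal CA1, and 1 to 2 and 2 to 3 for the interactions with CA3 and DG.

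Direction reversed for 1 value: Chrm1 in CA3 against DG was 0.21 log2 and not called, -0.037 log2 with total-count scaling and -0.283 log2 with FPKM. Total-count scaling moved the median of all genes by over 0.1 log2 in 7 comparisons: amygdala-projecting (-0.18) and accumbens-projecting against ventral CA1 (-0.12), dorsal against ventral CA3 (-0.21), CA1 against CA3 (0.18), CA3 against DG (-0.25), SST against dorsal CA1 (0.11) and the CA1 against CA3 interaction (0.15). Of the single differences over omissions, 652 kept direction and call, 23 gained a call and 63 lost it. Genes with few reads, as Chrm2 outside interneurons and Chrna5 outside CA1, are limited by depth. Several of the most similar genes changed with the pseudocount, as given with them.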
